A study of Mus musculus with 12 samples.

Results

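The 10 neighbouring genes of mouse chromosome 6, Fam234b, Emp1, Art4, Arhgdib, Rerg, Eps8, Strap, Slc15a5, Pik3c2g and Plekha5, were followed in the livers of wild-type mice and of mice lacking Ppard, which encodes the fatty acid receptor PPARβ/δ. They were selected on these array values themselves, as neighbours along the chromosome whose levels differed between the genotypes in both directions, so the genotype differences of the 10 are a description and carry no test. They are 10 of 22180 genes measured. All 10 were found by symbol on a probe set naming that gene alone, and all 10 passed the filter on dim genes (above the 40th percentile of the array on at least 3 arrays, a log2 intensity between 5.61 and 5.71). Slc15a5 passed through its wild-type arrays: 6 of 6 wild-type arrays and 0 of 6 null arrays lay above that level.

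The 4 groups, of 3 arrays each, were wild-type control, wild-type ethanol, Pparβ/δ-/- control and Pparβ/δ-/- ethanol, the last pair being called null here. The mice, males of 8 to 10 weeks on a C57BL/6 background, received for 16 weeks either liquid control food or the same kind of diet containing 4% (v/v) ethanol. Total liver RNA was hybridised to 12 arrays, a number that bounds the precision of what follows. Whether each array is a separate mouse is not stated, so errors and p-values reflect only how these samples spread. Which part of Ppard is disrupted is not stated either.

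The 10 genes encode proteins with unlike tasks. Pik3c2g encodes the gamma member of the class II phosphoinositide 3-kinases, enzymes that phosphorylate membrane lipids on internal compartments; it is made mainly in liver, where its lipid product on endosomes helps to sustain Akt2 signalling after insulin. Slc15a5 belongs by sequence to the family of proton-coupled peptide transporters. Eps8 is a substrate of the EGF receptor kinase that caps and bundles actin, Arhgdib is best known from blood cells, and Rerg is a small RAS-like GTPase. Emp1 is a membrane protein of the PMP22 family, Art4 carries the Dombrock blood group antigen, Strap binds TGF-beta receptors and the SMN complex, and Plekha5 binds phosphoinositides through a pleckstrin homology domain.

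The promoters of Pik3c2g and Slc15a5 are shown because these genes had the widest differences of the 10, in opposite directions. Each runs from 250 bases before the annotated start to 50 bases from it on, from RefSeq on GRCm38.p6, and capitals mark the 50 bases from the annotated start. Whether transcription begins at these annotated starts in liver was not tested, and the capitals of Slc15a5 open with the letters ATG. Pik3c2g has 2 annotated starts in this table, at chr6:139613822-139614121 and chr6:139841195-139841494 on the plus strand, and Slc15a5 has 1, at chr6:138079867-138080166 on the minus strand.
Pik3c2g, first start: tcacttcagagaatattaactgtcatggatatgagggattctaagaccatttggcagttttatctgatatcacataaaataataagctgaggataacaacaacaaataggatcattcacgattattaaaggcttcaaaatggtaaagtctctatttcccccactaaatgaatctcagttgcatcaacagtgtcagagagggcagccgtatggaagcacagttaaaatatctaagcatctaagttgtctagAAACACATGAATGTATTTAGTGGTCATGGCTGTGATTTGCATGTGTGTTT
Pik3c2g, second start: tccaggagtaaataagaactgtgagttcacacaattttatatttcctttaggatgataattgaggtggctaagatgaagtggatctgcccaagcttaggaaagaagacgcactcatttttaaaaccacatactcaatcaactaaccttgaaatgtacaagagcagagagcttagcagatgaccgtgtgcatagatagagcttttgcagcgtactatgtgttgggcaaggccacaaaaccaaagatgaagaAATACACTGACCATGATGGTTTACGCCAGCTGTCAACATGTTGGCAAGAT
Slc15a5: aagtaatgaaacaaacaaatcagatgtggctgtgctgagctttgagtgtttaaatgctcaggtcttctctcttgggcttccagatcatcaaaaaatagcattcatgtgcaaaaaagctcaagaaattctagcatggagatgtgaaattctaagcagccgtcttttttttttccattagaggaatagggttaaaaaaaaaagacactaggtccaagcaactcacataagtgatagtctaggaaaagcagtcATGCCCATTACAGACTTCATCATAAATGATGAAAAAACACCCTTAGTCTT
G and C made up 36% and 40.7% of the Pik3c2g windows and 36.7% of the Slc15a5 window, and between 44.7% (Arhgdib) and 83.7% (Plekha5) of the windows of the other 6 genes with an entry.

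PPAR receptors bind DNA as partners of RXR at repeats of the letters AGGTCA set 1 base apart. This repeat (AGGTCA, any 1 base, AGGTCA) was searched on both strands in the 13 windows of the 8 genes with an entry (Rerg and Eps8 have none in the table) and matched 0 of them; 0.0396% of the 32851 windows of all genes hold it. The single AGGTCA, which is contained in that repeat, was found in 2 of the 13 windows, both of Fam234b, and in 16.3% of all windows. Both Fam234b windows, which overlap, hold it on each strand. The first, at chr6:135197737-135198036 on the plus strand, is shown with the matching letters in capitals, where the opposite strand reads as TGACCT.
Fam234b, first start: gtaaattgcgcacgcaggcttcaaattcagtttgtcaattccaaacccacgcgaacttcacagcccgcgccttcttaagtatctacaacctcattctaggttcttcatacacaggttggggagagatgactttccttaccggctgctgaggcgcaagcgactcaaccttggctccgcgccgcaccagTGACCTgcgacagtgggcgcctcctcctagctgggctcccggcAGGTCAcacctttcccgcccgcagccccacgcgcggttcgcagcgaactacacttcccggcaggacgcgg
A match is a run of letters and not a binding site.

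**Figure D1:**
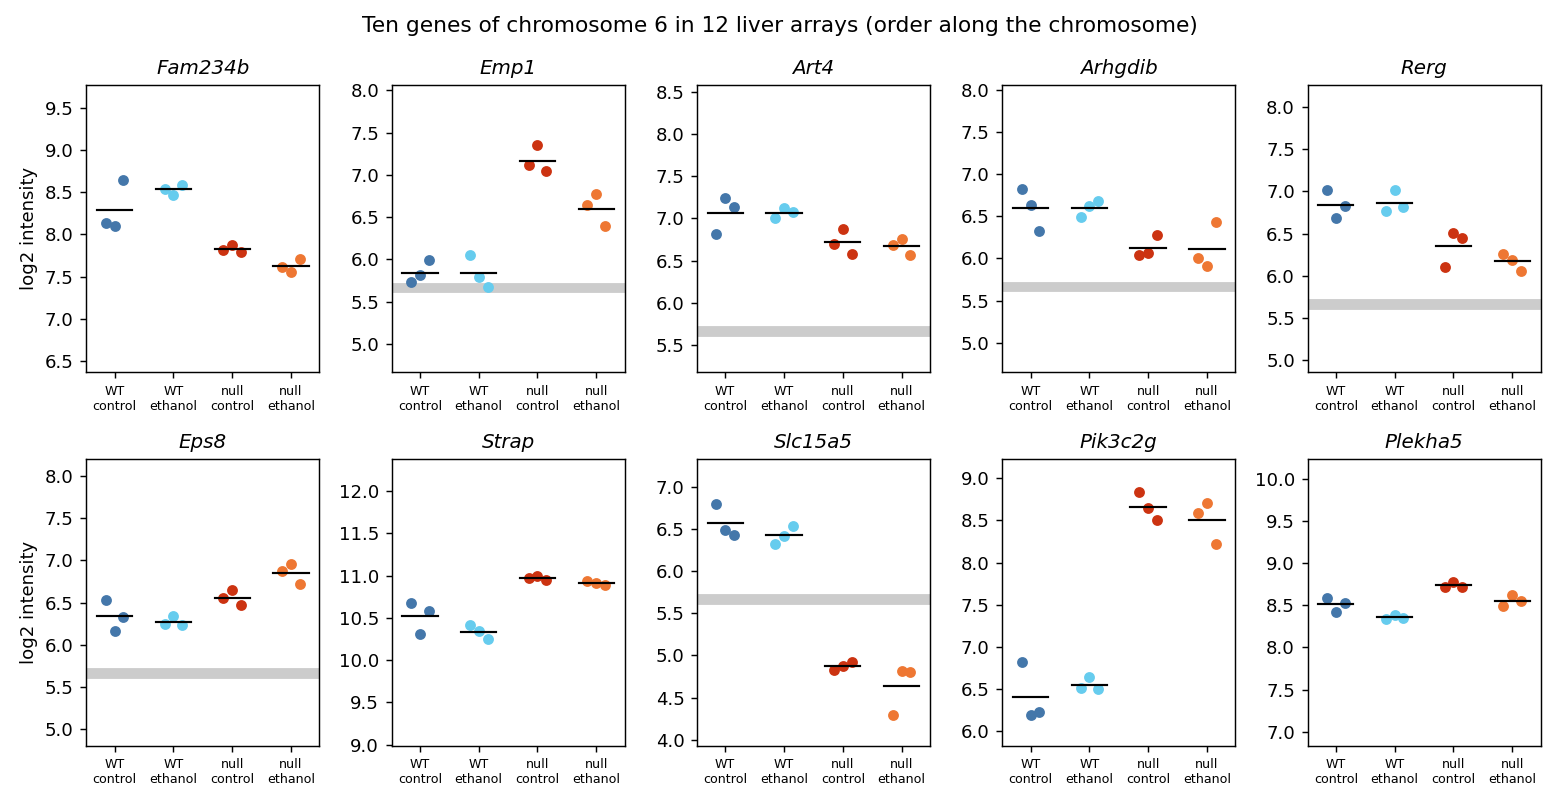
Log2 intensity of the 10 genes in 12 liver arrays, with 3 points per group for the arrays, a black line for the group mean and a grey band for the level of the filter on dim genes (5.61 to 5.71). Each panel spans the same number of log2 units; Pik3c2g lay between 8.22 and 8.83 in the null arrays and between 6.19 and 6.82 in the wild-type arrays, and Slc15a5 lay below the band in all null arrays.

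Pik3c2g was 4.29-fold higher in null livers. Its log2 intensities were 6.82, 6.19 and 6.23 in wild-type control, 6.52, 6.64 and 6.50 in wild-type ethanol, 8.83, 8.65 and 8.50 in null control and 8.59, 8.70 and 8.22 in null ethanol livers. Every null array lay above every wild-type array on both diets. Null minus wild-type was 2.10 ± 0.12 (log2 ± standard error, mean of both diets, 6 arrays per genotype), rank 9 among 14031 tested genes ordered from the most higher to the most lower, with 2.24 ± 0.17 on control diet and 1.95 ± 0.17 on ethanol diet.

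Slc15a5 was 3.34-fold lower in null livers. It lay at 6.79, 6.49 and 6.43 in wild-type control, 6.32, 6.42 and 6.53 in wild-type ethanol, 4.83, 4.87 and 4.92 in null control and 4.29, 4.82 and 4.80 in null ethanol livers. The genotypes did not overlap, and all null arrays were below the filter. The difference was -1.74 ± 0.10, with -1.69 ± 0.14 on control diet and -1.79 ± 0.14 on ethanol diet. The null arrays were dim, so the size of this difference depends on how low intensities are treated: with 16 added to every intensity before log2 the difference was -1.30.

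Emp1 lay higher in null livers. Its difference was wider on control diet in these arrays, but the interaction of genotype and diet did not pass (limma adjusted p = 0.223). Its values were 5.73, 5.81 and 5.99 in wild-type control, 6.05, 5.79 and 5.67 in wild-type ethanol, 7.12, 7.35 and 7.04 in null control and 6.64, 6.77 and 6.39 in null ethanol arrays. All null arrays were above all wild-type arrays, which lay close to the filter. The difference was 1.05 ± 0.09, made up of 1.33 ± 0.13 on control diet and 0.76 ± 0.13 on ethanol diet. With 16 added to every intensity before log2, the control-diet difference of Emp1 was 1.13. A second, dimmer Emp1 probe set lay between 3.21 and 3.85, above the filter on 0 arrays, and differed by -0.14.

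Strap lay at 10.67, 10.31 and 10.58 in wild-type control, 10.42, 10.34 and 10.25 in wild-type ethanol, 10.97, 10.99 and 10.95 in null control and 10.94, 10.91 and 10.89 in null ethanol arrays. The null arrays formed a narrow band above all wild-type arrays, and the difference was 0.51 ± 0.07. Eps8 lay at 6.53, 6.17 and 6.33 in wild-type control, 6.25, 6.34 and 6.24 in wild-type ethanol, 6.55, 6.65 and 6.47 in null control and 6.88, 6.96 and 6.72 in null ethanol arrays. Its genotypes overlapped on control diet (0.22 ± 0.11) and were apart on ethanol diet (0.58 ± 0.11), with 0.40 ± 0.07 on average. The control-diet difference of Eps8 was 0.31 without wild-type control 1, which alone overlapped the null arrays, and 0.13 without wild-type control 2. Plekha5 had the smallest difference of the 10, 0.21 ± 0.06, from 8.59, 8.42 and 8.53 in wild-type control, 8.34, 8.38 and 8.35 in wild-type ethanol, 8.72, 8.77 and 8.71 in null control and 8.49, 8.62 and 8.55 in null ethanol arrays. Within each diet its genotypes were apart, but null ethanol arrays overlapped wild-type control arrays.

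Of the genes that lay lower in null livers, Fam234b gave 8.14, 8.10 and 8.64 in wild-type control, 8.54, 8.47 and 8.59 in wild-type ethanol, 7.81, 7.88 and 7.79 in null control and 7.61, 7.56 and 7.71 in null ethanol arrays. All null arrays were below all wild-type arrays, by -0.69 ± 0.09 on average, -0.47 ± 0.12 on control diet and -0.91 ± 0.12 on ethanol diet. The control-diet value of Fam234b was -0.30 without wild-type control 3, which stood above the other 2 arrays of its group. Rerg lay at 7.01, 6.69 and 6.83 in wild-type control, 6.77, 7.02 and 6.81 in wild-type ethanol, 6.10, 6.51 and 6.45 in null control and 6.26, 6.19 and 6.06 in null ethanol arrays. The genotypes of Rerg did not overlap, and its difference was -0.60 ± 0.09. Art4 lay at 6.81, 7.24 and 7.14 in wild-type control, 7.01, 7.12 and 7.07 in wild-type ethanol, 6.70, 6.87 and 6.58 in null control and 6.69, 6.76 and 6.57 in null ethanol arrays. Wild-type control 1 lay below null control 2, so the genotypes of Art4 overlapped on control diet; the difference was -0.37 ± 0.08.

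Arhgdib lay at 6.82, 6.63 and 6.33 in wild-type control, 6.49, 6.62 and 6.68 in wild-type ethanol, 6.04, 6.06 and 6.28 in null control and 6.00, 5.91 and 6.43 in null ethanol arrays. The diets taken apart did not overlap, but null ethanol 3 lay above wild-type control 3, and the difference was -0.47 ± 0.11. Most macrophage markers, and a few markers of other leukocytes, were lower in the same livers. Of 8 Kupffer cell and macrophage markers, all 8 tested, 7 fell and 0 rose in null livers, with Cd5l at -0.94 ± 0.12 (limma adjusted p = 0.000341) and Marco at -0.73 ± 0.11 (adjusted p = 0.00187). Their summed intensity ran from 3767 to 6118 in wild-type and from 2227 to 4177 in null arrays. Of 11 markers of other leukocytes, 10 were measured and 7 tested, of which 2 fell and 0 rose. These 2 were Ptprc (CD45) at -0.74 ± 0.12 (limma adjusted p = 0.00249) and Laptm5 at -0.50 ± 0.09 (adjusted p = 0.00683). Coro1a (0.01), Cd79a (0.02), Cd3e (-0.14), Itgam (-0.18) and Nkg7 (-0.18) did not pass. Their summed intensity ran from 702.2 to 914.3 in wild-type and from 583.5 to 638.8 in null arrays, without overlap. This sum includes the 2 that fell, Ptprc (mean intensity 194 in wild-type and 115 in null arrays) and Laptm5 (137 and 96.5). Cd3e (76.7 and 69), Nkg7 (78.7 and 69.3) and Itgam (64 and 56.6) differed less, and Coro1a (95 and 95.6) and Cd79a (52.7 and 53.1) stayed level. Of the markers too dim to be tested, Cd3g (39.9 and 28.4) lay lower in null arrays. Ms4a1 (27.6 and 28.6) and S100a8 (13.7 and 13) lay close together. The sum therefore does not stand for each leukocyte type. In whole liver, fewer cells of a type and less RNA per cell cannot be told apart, and the part of these cells in the Arhgdib difference was not tested.

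Other cell types that could carry these genes varied as follows. Of 7 sinusoidal endothelial cell markers 2 fell and 0 rose, with summed intensities from 4747 to 5719 in wild-type and from 3318 to 6036 in null arrays. Of the 6 hepatocyte, 7 stellate cell, 3 cholangiocyte and 1 erythroid markers tested, limma called 0, with 1, 2, 1 and 0 at an unadjusted p under 0.05. The hepatocyte markers summed to between 71200 and 78160 in wild-type and between 71420 and 77810 in null arrays, the tissue named by the labels. Stellate cell sums ran from 5032 to 5976 and from 5380 to 6404, cholangiocyte sums from 357.7 to 426.7 and from 315.1 to 401.7, and erythroid sums (2 of 6 markers measured) from 106.9 to 133.3 and from 106.2 to 131.8 in wild-type and null arrays. Ppard lay between 7.64 and 8.01 in wild-type and between 7.69 and 8.06 in null arrays, so it gives no check of the genotype labels. Ppard is on chromosome 17. Medians of log2 intensity of the 12 arrays lay between 5.55 and 5.62.

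**Figure D2:**
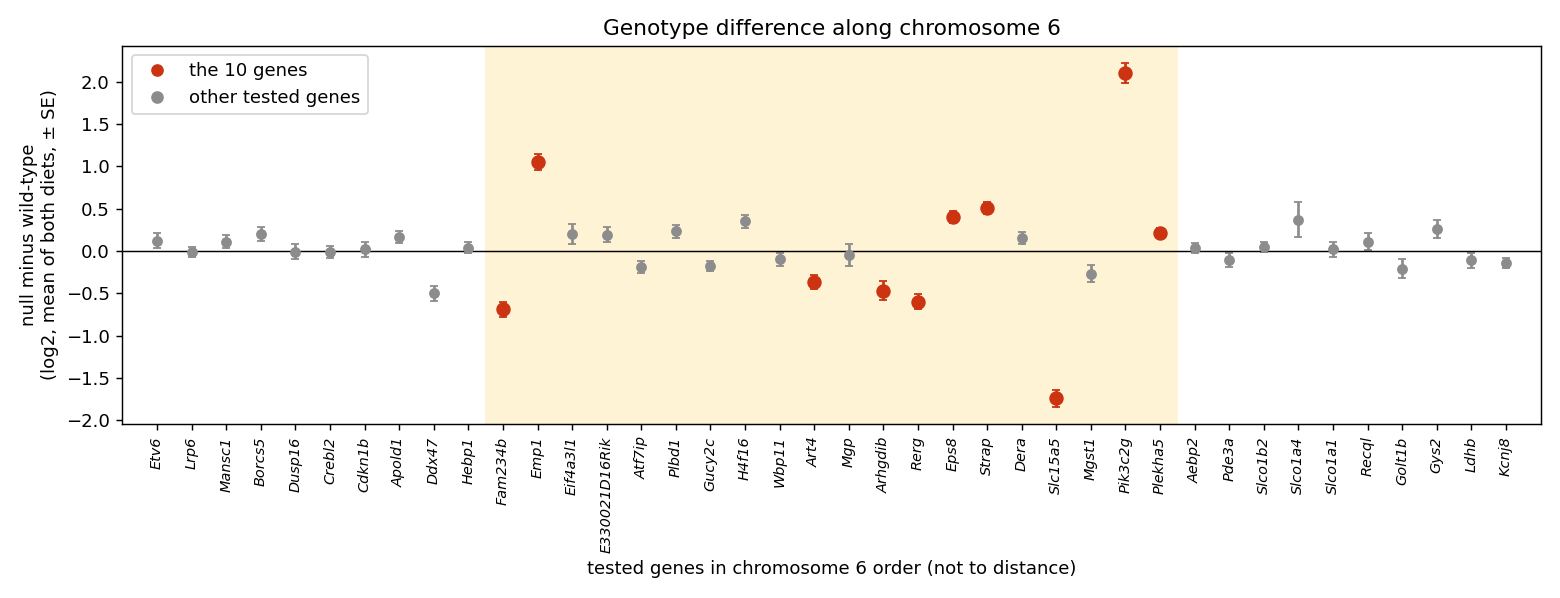
Null minus wild-type difference (log2, mean of both diets, with its standard error) of 40 tested genes in their order along chromosome 6, spaced evenly and not to distance; the shaded stretch runs from Fam234b to Plekha5. Higher and lower genes both occur within the stretch, in short runs, from -1.74 for Slc15a5 to 2.10 for Pik3c2g. The 10 genes before the stretch lie between -0.50 (Ddx47) and 0.20, and the 10 after it between -0.21 and 0.37.

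Along the chromosome, the lower and higher genes were interleaved. Fam234b (lower) was next to Emp1 (higher) among tested genes. After 7 other tested genes came Art4 and, with 1 tested gene between, Arhgdib and then Rerg, all lower. Eps8 and Strap, both higher, followed directly. Slc15a5 (lower) came after 1 more tested gene. After 1 further tested gene came Pik3c2g, next to Plekha5 (both higher). Of the 10, 6 kept all 6 null arrays apart from all 6 wild-type arrays (3.58% of tested genes), 3 of them higher (1.47%) and 3 lower (2.11%). On control diet alone 8 of 10 did not overlap (24.7% of tested genes), and on ethanol diet alone 10 of 10 (24.1%). The genes were selected on these differences, so nothing is read from these counts.

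The stretch from Fam234b to Plekha5 held 34 measured genes, of which 20 were tested: the 10 followed here and 10 others. The other 10 lay between -0.27 and 0.35, with a median size of 0.19 against 0.55 for the chosen genes and 0.09 for all tested genes, and all 10 overlapped between genotypes. The choice was made on these differences and left the other 10 behind. Nothing is therefore read from their overlap or from the contrast of 0.19 with 0.55. Limma called 1 of the other 10, H4f16 (adjusted p = 0.0217), where 7% of all tested genes were called. The same choice shaped this count, so nothing is read from it either. The other 10 included a clone, not named here, at 0.19 ± 0.09. Also on the higher side were H4f16, a histone gene, at 0.35 ± 0.08, Plbd1 at 0.23 ± 0.08, Eif4a3l1 at 0.20 ± 0.12 and Dera at 0.15 ± 0.07. On the lower side were Mgst1, a microsomal glutathione transferase, at -0.27 ± 0.10, Atf7ip at -0.19 ± 0.07, the guanylate cyclase gene Gucy2c at -0.18 ± 0.06, Wbp11 at -0.10 ± 0.08 and Mgp at -0.05 ± 0.13. Among tested genes, Mgp separates Art4 from Arhgdib, Dera separates Strap from Slc15a5, and Mgst1 separates Slc15a5 from Pik3c2g. The 14 genes of the stretch below the filter differed by between -0.46 (H2aj) and 0.19 (Pbp2), and 1 of them did not overlap.

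Outside the stretch, the 10 tested genes before it lay between -0.50 and 0.20 and the 10 after it between -0.21 and 0.37. Ddx47, which encodes an RNA helicase and stands 2 places before Fam234b, was the only one of these 20 without overlap, at -0.50 ± 0.09 (8.39 to 8.76 in wild-type and 7.66 to 8.20 in null arrays), and was named after its value was seen. Hebp1, between Ddx47 and Fam234b, differed by 0.04 ± 0.06. Over the 680 tested genes of chromosome 6 outside the stretch, differences ran from -3.73 (Mug2) to 0.94. The rest of the chromosome was cut into 33 other blocks of 20 tested genes. Limma called between 0 and 10 genes per block for the genotype averaged over diets, with a median of 1. In the block with 10, which lay before the stretch, the called genes ran from -1.45 to 0.31.

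Ethanol was the comparison that the choice of genes did not use. No ethanol difference of the 10 genes passed the adjusted threshold in either genotype. In wild-type livers limma called 0 of 10 (0.0927% of tested genes called), and 0 had an unadjusted p under 0.05. In null livers it called 0 of 10 (0.00713% called), with 3 at an unadjusted p under 0.05; Slc15a5 is counted here although all its null arrays were below the filter. Averaged over the genotypes it called 0 of 10 (0.0143% called), with 2 at an unadjusted p under 0.05. In wild-type livers 5 genes lay higher and 5 lower with ethanol, with a median of 0.00; in null livers 1 lay higher and 9 lower, with a median of -0.17, where the median of all tested genes was -0.0464.

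Emp1 had the widest diet difference. In null livers it was -0.57 ± 0.13 with ethanol (95% confidence interval -0.85 to -0.29, limma adjusted p = 0.213), and its null ethanol arrays, 6.39 to 6.77, lay below its null control arrays, 7.04 to 7.35. In wild-type livers it was -0.01 ± 0.13 (interval -0.29 to 0.28). Eps8 was 0.29 ± 0.11 in null livers (interval 0.07 to 0.52, adjusted p = 0.34), again without overlap, and -0.07 ± 0.11 in wild-type livers. Plekha5 was -0.18 ± 0.08 in null (adjusted p = 0.397) and -0.16 ± 0.08 in wild-type livers (adjusted p = 0.386), without overlap in either. In null livers 6 of 10 genes, the dim Slc15a5 among them, did not overlap between the diets (18.6% of tested genes) in wild-type livers 1 of 10 (19.4%), and over both genotypes 0 of 10 (0.556%).

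Pik3c2g differed with ethanol by 0.14 ± 0.17 in wild-type (interval -0.22 to 0.50) and by -0.15 ± 0.17 in null livers (interval -0.51 to 0.21). Slc15a5 differed by -0.14 ± 0.14 in wild-type (interval -0.44 to 0.16). In null livers its arrays were below the filter on both diets, so the diet difference there is not interpreted. Art4 and Arhgdib had the smallest diet differences, between -0.04 and 0.01 in both genotypes.

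**Figure D3:**
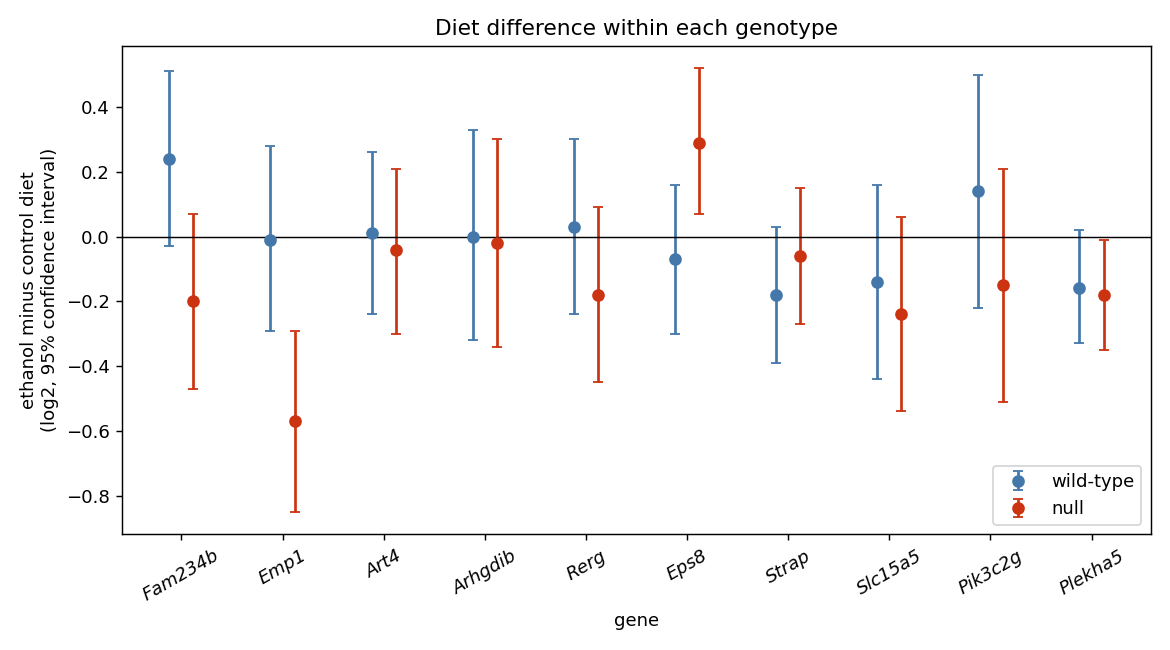
Ethanol minus control difference (log2 points with 95% confidence intervals from limma, 3 arrays per group) of the 10 genes in wild-type (blue) and null (red) livers. Emp1 in null livers, at -0.57, lies farthest from 0, and the null arrays of Slc15a5 were below the filter on dim genes; the intervals of Emp1, Eps8 and Plekha5 in null livers leave out 0, and no gene passed the adjusted threshold.

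The interaction asked whether the diet difference depended on the genotype. Limma called 0 of 10 (0.0143% of tested genes called), with 3 at an unadjusted p under 0.05. These were Emp1 at -0.57 ± 0.18 (adjusted p = 0.223), Fam234b at -0.44 ± 0.18 (adjusted p = 0.273) and Eps8 at 0.36 ± 0.15 (adjusted p = 0.283). For Fam234b the ethanol difference was 0.24 ± 0.12 in wild-type and -0.20 ± 0.12 in null livers. For Pik3c2g the interaction was -0.29 ± 0.24 (interval -0.80 to 0.22). For Slc15a5 the interaction is not interpreted, since it rests on null arrays below the filter.

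Within groups the genes varied by different amounts. The pooled standard deviation within groups was 0.06 for Plekha5, 0.10 for Strap, 0.12 for Eps8, between 0.15 and 0.17 for Art4, Fam234b, Rerg and Emp1, 0.19 for Slc15a5, 0.20 for Arhgdib and 0.23 for Pik3c2g. With the group means removed, the 45 pairs of genes correlated over 12 arrays with a median r of 0.12, from -0.84 for Emp1 with Arhgdib to 0.87 for Eps8 with Pik3c2g, and 28 pairs were positive. Eps8 with Plekha5 gave 0.77 and Eps8 with Strap 0.71. These are descriptions of arrays that share their processing, picked as the extremes.

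The genes with the levels most like Pik3c2g over the 12 arrays were Arsk (Pearson r = 0.99), Slc6a16 (0.986), Ctse (0.983) and Rhob (0.981), on chromosomes 13, 7, 1 and 12. The genes most like Slc15a5 were Pnrc2 (0.983), Lncbate1 (0.977), Mug2 (0.976) and Zfp982 (0.972), on chromosomes 4, 8, 6 and 4. All 8 were picked for following the genotype: Slc6a16 lay between 6.51 and 7.15 in wild-type and between 8.37 and 8.85 in null arrays, and Pnrc2 between 9.48 and 9.81 and between 8.80 and 8.92.

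Relatives and partners of the 10 genes were taken from 11 lists. Of 82 genes listed beside the chosen ones, 74 were measured and 67 tested. In null against wild-type livers, averaged over the diets, 4 of 67 fell and 0 rose with limma (5.97%, against 7% of all tested genes called), with a median of -0.02; 3 of the 4 are described here. With ethanol 0 of 67 changed in wild-type, in null livers or in the interaction (limma; 7, 2 and 7 at an unadjusted p under 0.05).

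Of 13 other phosphoinositide 3-kinase genes, all tested, 1 fell and 0 rose. Pik3cg, a kinase of leukocytes, was -0.28 ± 0.07 (adjusted p = 0.0381), from 6.03 to 6.23 in wild-type and from 5.63 to 6.16 in null arrays. This call was lost when no filter was set, and also when any 1 of these arrays was left out: control 1 or 3 and ethanol 1, 2 or 3 of the wild-type, control 2 or 3 and ethanol 1 or 2 of the null groups (highest adjusted p = 0.0954 over the alternatives). Pik3cd, the other leukocyte kinase, was -0.24 ± 0.08 (adjusted p = 0.112) and Pik3c3, the class III kinase, -0.17 ± 0.06 (adjusted p = 0.115). The other class II genes, Pik3c2a and Pik3c2b, were -0.10 ± 0.06 and -0.12 ± 0.09 and did not pass. Of 16 tested lipid phosphatase and insulin signalling genes 0 passed with limma (4 at an unadjusted p under 0.05), and those with the smallest p were Inpp5d at -0.29 ± 0.09, Mtm1 at 0.25 ± 0.08 and Foxo1 at 0.33 ± 0.11.

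Of the other peptide transporter genes 4 were measured and 3 tested. Slc15a3, a transporter of lysosomes in macrophages, fell by 0.65 ± 0.13 (limma adjusted p = 0.00938); wild-type arrays spanned 6.52 to 6.96 and null arrays 5.76 to 6.38. Slc15a2 was 0.50 ± 0.23 (adjusted p = 0.233) and Slc15a4 0.05 ± 0.10. Of the other pleckstrin homology genes, Plekha8 fell by 0.45 ± 0.07 (adjusted p = 0.00157; 8.05 to 8.34 in wild-type and 7.64 to 7.86 in null arrays), and the other 6 did not pass. Pik3cg and Slc15a3 shared the direction of their genotype difference with the macrophage and leukocyte markers that fell. Whether they varied together with those markers, and the part of those cells in them, was not tested.

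In 6 further lists, under the setting used throughout, 0 genes passed the adjusted limma test; an unadjusted p under 0.05 was reached by 1 gene in each of the Emp1, Rerg and Strap lists and by 0 in the others. The Emp1 relatives Emp3, Pmp22 and Emp2 were -0.22 ± 0.06 (adjusted p = 0.0615), -0.06 ± 0.11 and 0.06 ± 0.15. Egfr, the receptor upstream of Eps8, was -0.31 ± 0.16 (adjusted p = 0.27). The TGF-beta receptor gene Tgfbr2, among the Strap partners, was -0.36 ± 0.14 (adjusted p = 0.159), Rasl11b among the RAS-like genes was -0.25 ± 0.11 (adjusted p = 0.202), Art1 was -0.03 ± 0.09 and Fam234a 0.06 ± 0.06. Of the relatives named here, some passed under an alternative: Emp3 without wild-type control 2, with a stricter filter or with array weights (lowest adjusted p = 0.0251), Tgfbr2 without null ethanol 3 or with array weights (0.0177), and Rasl11b without null control 2 (0.0302). Pik3cd (lowest adjusted p = 0.038) and Inpp5d (0.0148) passed with array weights and without null control 1, Mtm1 (0.0259) with array weights and without wild-type control 1, and Foxo1 (0.0394) with array weights and without null ethanol 3.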

How the data were processed

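Liver RNA of 12 samples was measured on Affymetrix arrays, 1 array per sample. The deposited intensity values, 1 per probe set, came from RMA as run by the authors (submitters' processing notes); its settings, software and genome build are not stated in what was used here. They ran from 1.816 to 20156 on a linear scale, and log2 was taken. Of 41345 probe sets 23521 named exactly 1 gene, 1814 several and 16010 none. The probe set with the highest mean stood for a gene. A gene was tested if it lay above the 40th percentile of its array on at least 3 arrays (14031 of 22180 genes). A group-means model of all 12 arrays was fitted in limma 3.58.1 under R 4.3.3 (eBayes, 8 residual and 4.95 prior degrees of freedom). Its p-values were adjusted by Benjamini-Hochberg over all tested genes, and a gene was called under 0.05. The fit was also run on simulated data with independent arrays of equal quality, which cannot show how it handles unequal arrays. A ± is the standard error of the fit. Gene order, names and promoters came from RefSeq (GRCm38.p6).

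The members, the gene lists and the rules were chosen with earlier results of these data known. Named beside the 10 members were the tested genes between them (5 most higher, 5 most lower), up to 3 relatives per list with the smallest genotype p, and 4 genes most like Pik3c2g and Slc15a5; clone names and predicted genes were counted only. Ddx47, Hebp1, Pik3c2a, Pik3c2b and the marker examples were named after their values were seen. The genes of 1 list are counted in the totals and not reported here. Filter, probe set, normalisation, offset, variance model, array weights, replicate number and left-out arrays were varied.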

Additional observations from a re-analysis of the deposited data

How the results depend on the processing

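Over 641 recomputed genotype differences of the 10 genes, 0 changed direction and 7 moved by more than 1 within-group standard deviation. With 16 added before log2, Slc15a5 averaged over diets was -1.30; leaving out 1 array gave 2.04 to 2.20 for Pik3c2g and -1.79 to -1.65 for Slc15a5. Limma called none of the 10 genes for ethanol or the interaction under any alternative that gave a value (847 values); 55 of these changed sign, each with a main value smaller than its standard error, which was not counted as a reversal. Emp1, Arhgdib and Slc15a5 did not pass the stricter filter and have no value there; Slc15a5 also has none for ethanol in null livers when only those groups were fitted.

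Counts of called genes over the whole array moved more. For ethanol in wild-type livers the count of 13 became 7 without a filter, 23 with a stricter filter, 43 with 16 added, 24 with a trended robust variance, 832 with array weights, and 0 to 811 with 1 array left out (811 without wild-type control 2). For ethanol in null livers the count of 1 became 0 without a filter, 0 with only the groups compared, 9 with array weights, and 0 to 3 with 1 array left out. The interaction count of 2 became 1 without a filter, 0 with a stricter filter, 0 with 16 added, 38 with array weights, and 0 to 84 with 1 array left out (84 without wild-type control 2). Ethanol averaged over genotypes, at 2, became 5 after quantile normalisation, 4 with a trended robust variance, 133 with array weights, and 0 to 293 with 1 array left out. The genotype count on control diet, 715, became 393 without a filter, 239 with only the groups compared, 1631 with array weights, and 193 to 1306 with 1 array left out. On ethanol diet 251 became 829 with array weights and 108 to 320 with 1 array left out, and averaged over diets 982 became 1863 and 621 to 1317. The cause was not tested.

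With the replicate number as a block, the counts were 9, 0, 2 and 0 for ethanol in wild-type, in null, the interaction and the average, and 613, 229 and 884 for the genotype on control diet, on ethanol diet and averaged; the block ended the Pik3cg call (limma adjusted p = 0.0538). Arrays with the same number did not deviate together (18 pairs, median r = -0.02, from -0.15 to 0.19), so the numbers were not taken as pairing. With 3 arrays per group, the median standard error was 0.116 for a difference between 2 groups and 0.164 for the interaction.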
